A study of Rattus norvegicus with 5 samples.

Results

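Htr3a cone bipolar cells are retinal interneurons that carry the serotonin receptor subunit gene Htr3a next to genes of the bipolar cell machinery. Bipolar cells pass the signal of rods and cones to the inner retina. ON bipolar cells sense glutamate through the receptor mGluR6, encoded by Grm6, which closes the TRPM1 channel through the G protein subunits Gnao1, Gnb3 and Gng13, whereas OFF bipolar cells use ionotropic receptors such as the one that Grik1 encodes. In mouse retina, Htr3a reporters label cone bipolar cells of the type 5 family, an ON group, and the calcium-binding protein gene Cabp5 is active in rod bipolar and several cone bipolar types.

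The cells were chosen from single-cell (droplet) libraries of whole rat retina. A barcode, the tag that stands for 1 droplet, was kept when it held at least 200 genes and at most 40% of its unique molecular identifiers (UMIs, single captured RNA molecules) in mitochondrial genes. A member had at least 1 Htr3a UMI, at least 2 UMIs in Cabp5, Grm6, Trpm1 and Gng13 summed, and at most 1 UMI in the amacrine genes Gad1, Gad2 and Slc6a9. This rule found 1334 members among 41184 kept barcodes. The values of those 8 genes chose the members and are given here as description only. The same rule without Htr3a left 8946 barcodes, called gated bipolar barcodes below.

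The study followed Sprague Dawley rats after induction of diabetes. Experimental rats received a single intraperitoneal dose of 45 mg/kg streptozotocin (STZ), a toxin of insulin-producing beta cells, entered the study at blood glucose above 200 mg/dL, and were then kept on a diet rich in fat and sugar until 2, 4 or 8 weeks. Controls at 0 weeks received citrate phosphate buffer alone, and no such diet is described for them. The libraries analysed were 1 control and 1 at each diabetic time, each a single retinal specimen; the other control of the series was not analysed here. With 1 library per time there was no test between times. In these comparisons the effects of diabetes, diet, age, the individual animal and the day of preparation cannot be told apart, and the 3 comparisons with control share 1 control library. The retinas had been digested in 0.25% trypsin at 37 °C for about 40 min, so all values come after dissociation.

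Members numbered 272 of 1755 gated bipolar barcodes in the control, 419 of 3329 at 2 weeks, 212 of 1450 at 4 weeks and 431 of 2412 at 8 weeks. As shares these were 15.5% (95% exact binomial interval 13.8 to 17.3), 12.6% (11.5 to 13.8), 14.6% (12.8 to 16.5) and 17.9% (16.4 to 19.5). The log2 ratio to control was -0.30 (-0.50 to -0.10) at 2 weeks, -0.08 (-0.32 to 0.15) at 4 weeks and 0.21 (0.01 to 0.41) at 8 weeks. Of all kept barcodes the members were 3.01%, 2.70%, 2.14% and 6.39%. The share of gated barcodes was lowest at 2 weeks and that of all kept barcodes at 4 weeks, and both were highest at 8 weeks. These intervals cover counting error only, as do all intervals given here for single libraries. The direction at 2 weeks depended on the mitochondrial limit: at 20% in place of 40% the log2 ratio was 0.39.

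The libraries held 9742, 16128, 10717 and 7649 deposited barcodes in the order control, 2, 4 and 8 weeks, the order used for every series of 4 values below. Their totals were 25068331, 34177860, 20151789 and 24604362 UMIs. Members had a median of 4220, 3586, 3864 and 3862 UMIs, against 3716, 2799, 3212 and 3553 in the other gated bipolar barcodes. No member barcode sequence occurred in more than 1 library, while 196 of all barcodes did. Members at 1 Htr3a UMI, the edge of that threshold, are given with the Htr3a counts. Just inside the bipolar threshold (2 UMIs) lay 0, 9, 12 and 2 members, and just outside (1 UMI) 6, 14, 5 and 8 barcodes. At 1 amacrine UMI, just inside, lay 23, 20, 8 and 25 members, and at 2, just outside, 0, 1, 0 and 1 barcodes. At 35 to 40% mitochondrial UMIs lay 15, 14, 16 and 43 members, and 16, 22, 13 and 30 barcodes were above 40%. The doublet caller Scrublet, run here with a set rate, marked 38, 86, 19 and 53 members, and they were kept. These were 13.97%, 20.53%, 8.962% and 12.3% of the members. Of all kept barcodes it marked 705 of 9044, 1999 of 15496, 848 of 9895 and 413 of 6749. That share was smaller than among the members in every library, by little at 4 weeks. Whether the marked members are doublets was not tested.

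Htr3a was a low-count gene in these libraries. A single Htr3a UMI was all that 62.5%, 67.5%, 64.6% and 61.5% of the members had, and the highest counts were 11, 5, 6 and 10 UMIs. Barcodes of cell classes that should lack the gene gave the background: 0.117%, 0.192%, 0.118% and 0.357% of rod barcodes (median 1096, 974, 916 and 1240 UMIs) held an Htr3a UMI. In amacrine barcodes, which were deeper (median 6687, 4850, 5840 and 5921 UMIs), the share was 1.29%, 1.49%, 0.343% and 1.93%. Both lie below the 12.6 to 17.9% of the gated bipolar barcodes. Summed over the members, Htr3a stood at 363, 393, 405 and 373 CPM (counts scaled to the same UMI total in every library).

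The rule genes are given first, as description. A Cabp5 UMI was present in 64.7%, 43.2%, 54.7% and 72.8% of them, and a Grm6 UMI in 52.6%, 41.8%, 47.2% and 50.1%. The ON transcription factor gene Isl1, which the rule did not use, was found in 64.3%, 72.8%, 55.2% and 58.7%. The OFF receptor gene Grik1 was found in 2.94%, 2.15%, 4.72% and 3.48% of the members, against 21.9%, 8.25%, 17.8% and 17.2% of the other gated bipolar barcodes. Prkca, which encodes the protein kinase that marks rod bipolar cells, was found in 8.46%, 20.3%, 5.19% and 9.98% of the members, highest at 2 weeks. Of the bipolar markers, Otx2 and Lrtm1 had no UMI in any member.

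Other serotonin genes were at or near 0. The partner subunit gene Htr3b had no UMI in any member, and the same held for the serotonin transporter gene Slc6a4, for Ddc, and for Htr1b, Htr1d, Htr4, Htr6 and Htr7. Ric3, which encodes a chaperone of such receptors, stood at 16.9, 20.9, 14.3 and 20.1 CPM. Tph2, which encodes the neuronal enzyme of serotonin synthesis, stood at 3.22, 6.98, 5.97 and 8.25 CPM.

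The members were then placed among 24 clusters of the gated bipolar barcodes, built without the rule genes. A cluster is described here by its number and leading genes, with no test, since the cells that were clustered also give those genes. Cluster 1 held 671 members (50.3%), cluster 11 held 177 (13.3%), cluster 17 held 97 (7.27%) and cluster 19 held 82 (6.15%). These 4 clusters held 1027 of the 1334, and in each of them more than 50% of the barcodes had an Htr3a UMI. The share was 50.9% in clusters 1 and 11, 54.5% in cluster 17 and 81.2% in cluster 19. Outside them it was lower, 13.6% in cluster 10, 9.72% in cluster 14, 10.5% in cluster 3 and 13.1% in cluster 5. In the small clusters led by genes of other classes it was higher than in most others, with 5 of 27 barcodes in cluster 24, 15 of 94 in cluster 20 and 7 of 58 in cluster 22.

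**Figure D1:**
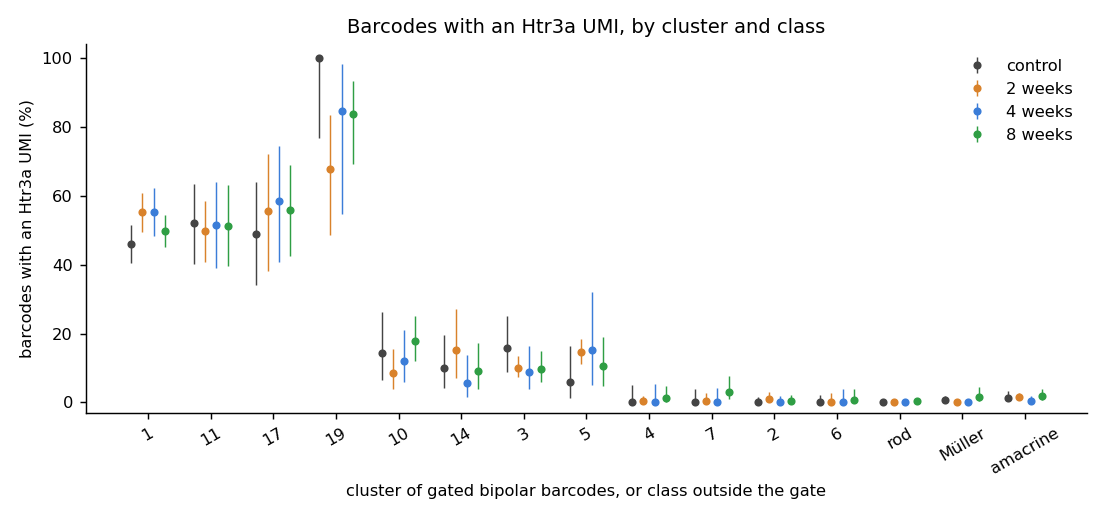
Percent of barcodes with at least 1 Htr3a UMI (vertical axis) in each cluster of gated bipolar barcodes and in rod, Müller and amacrine barcodes (horizontal axis), 1 point per library with 95% exact binomial bars. Clusters 1, 11, 17 and 19 sit at 46.0% or more in every library, clusters 3 and 5 between 5.88% and 15.7%, and rods below 1%.

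Within cluster 1, barcodes with and without an Htr3a UMI were much alike in the genes that lead it. The 671 with Htr3a and the 648 without stood at 1011 and 1024 CPM of Sparcl1, 424 and 399.9 CPM of Meis2, 103 and 113 CPM of Sox6, and 226 and 251 CPM of Grm6. The gate thus took about as many barcodes of this cluster as it left, at a mean of 0.79 Htr3a UMI per barcode.

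**Figure D2:**
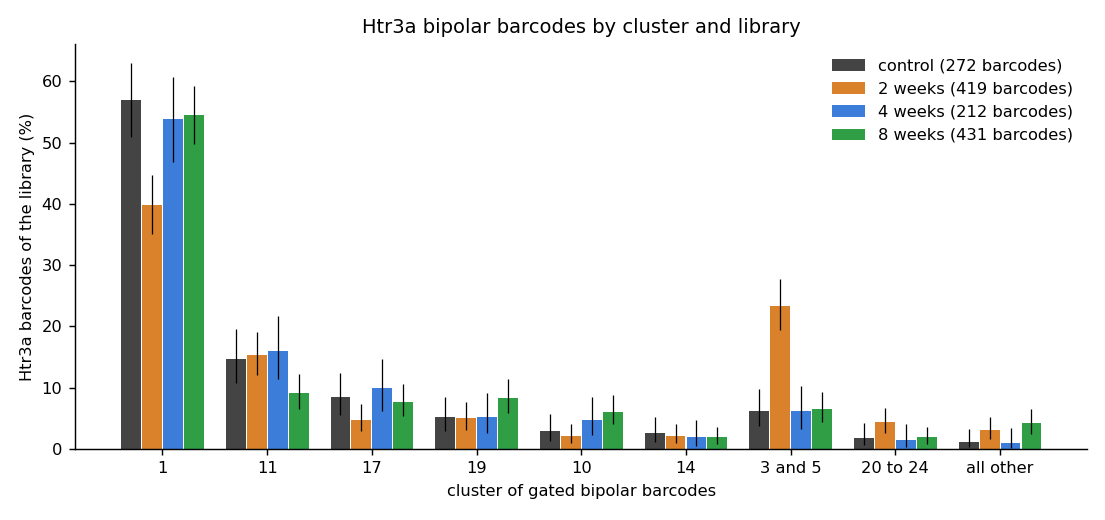
Percent of each library's members (vertical axis) that fell in each cluster or set of clusters (horizontal axis), 1 bar per library with 95% exact binomial error bars. Clusters 3 and 5 together hold 23.4% of the members at 2 weeks and 6.13 to 6.50% in the other libraries.

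Members of the 4 clusters differed from one another in named genes. In clusters 1 and 11 the members carried Sparcl1, which encodes a secreted matrix protein (1011 and 876 CPM), the transcription factor genes Meis2 (424 and 391 CPM) and Sox6 (103 and 91.6 CPM), and the neuronal calcium sensor gene Hpca (509 and 424 CPM). Sox6 marks a subtype of the type 5 family in mouse. Dbh, which encodes the enzyme that makes noradrenaline from dopamine, stood at 151 and 120 CPM there. Both clusters also held the ON genes Grm6 (226 and 184 CPM), Gnb3 (1574 and 1080 CPM) and Isl1 (336 and 325 CPM).

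In cluster 17 the members were led by the transcription factor gene Irx3 (226 CPM, against 0.4 in cluster 1) and by Kirrel3, which encodes an adhesion protein (204 against 0.8 CPM). They shared Dbh (124 CPM), Hpca (371 CPM) and Isl1 (350 CPM) with cluster 1 but stood at 0 for Sox6. Gnb3 was at 30.9 CPM and Grm6 at 52.6 CPM.

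Cluster 19 had the most Htr3a per barcode (2.87 UMIs; 727 CPM over its members) and went against the ON label. Its 82 members stood at 10.0 CPM of Grm6, 2.5 CPM of Isl1, 82.8 CPM of Gnb3 and 0 of Nyx, which encodes an ON synapse protein that anchors TRPM1. They carried Fezf1, a transcription factor gene (191 CPM), Tacr3, which encodes a neurokinin receptor (183 CPM), Col11a1, a collagen gene (1194 CPM), and Nts, the neurotensin gene (868 CPM). In cluster 1 those 4 stood at 0.8, 0.4, 9.4 and 0 CPM. The OFF receptor gene Grik1 was at 32.6 CPM. Cabp5 was at 416 CPM, close to the 447 CPM of cluster 1.

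A further 156 members (11.7%) lay in clusters 3 and 5, which are led by rod bipolar genes. Pcp2, a modulator of G protein signalling that is abundant in rod bipolar cells, stood at 9606 and 12520 CPM over these members, against 93.8 in cluster 1, and Prkca at 307 and 399 CPM against 1.2. Htr3a itself was lower there, at 185 and 282 CPM. Members of cluster 10 (53) also carried Pcp2 (9140 CPM) but little Prkca (54.1 CPM), with Cdh11 (726 CPM), Cabp2 (726 CPM) and Slitrk5 (255 CPM). These members fit the rule yet differ from cluster 1 in the leading genes of both.

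**Figure D3:**
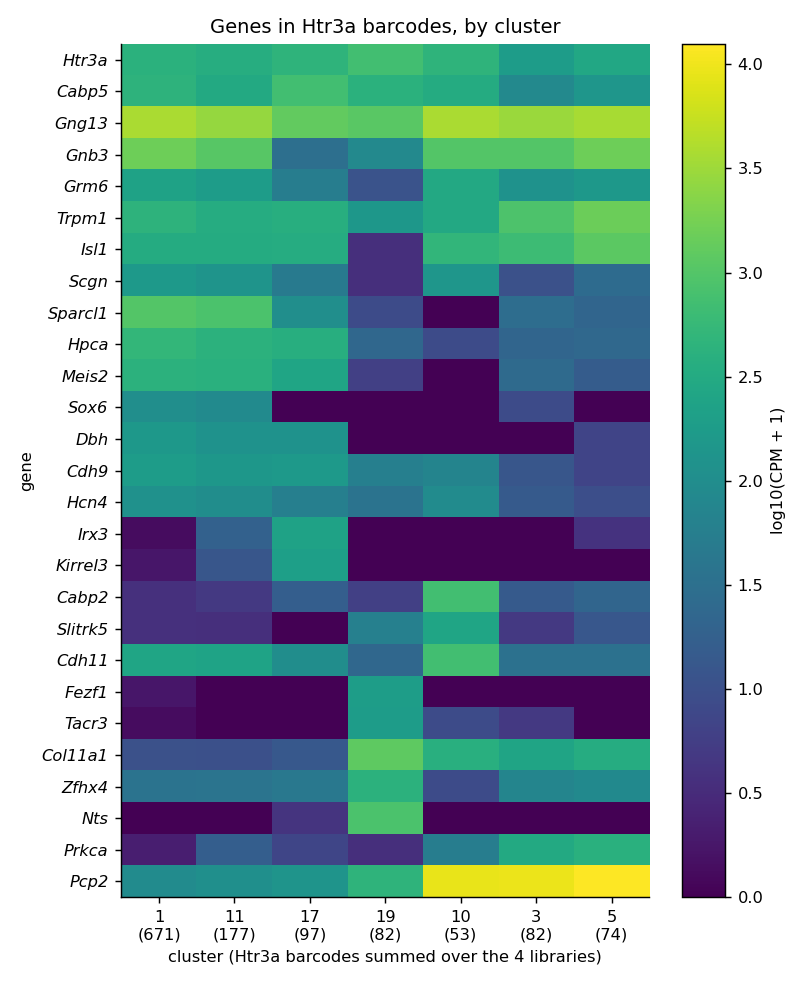
Heat map of log10(CPM + 1) for 27 genes (vertical axis) over the members of clusters 1, 11, 17, 19, 10, 3 and 5, each summed over the 4 libraries (horizontal axis, with the number of members). Sparcl1, Meis2 and Hpca are high in clusters 1 and 11, Irx3 in 17, Fezf1 and Nts in 19, and Prkca in 3 and 5.

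The cluster makeup of the members differed between libraries. Cluster 1 held 57.0%, 39.9%, 53.8% and 54.5% of them, and clusters 3 and 5 held 6.25%, 23.4%, 6.13% and 6.50%. The rod bipolar marker genes summed to 335, 666, 309 and 333 CPM in the members, and rod marker genes to 5631, 14580, 5887 and 7456 CPM. The 2-week library was the highest in each, and the part of these markers in the differences below was not tested. For the named differences between times, the value over all barcodes of cluster 1 is given as well.

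To see which genes set the members apart, they were compared with 3 other groups of kept barcodes without Htr3a. The ON and rod bipolar groups were gated bipolar barcodes, and the OFF group was drawn from all kept barcodes. The comparison, in 4 library pairs, used edgeR's quasi-likelihood test with library as a block. A call needed a Benjamini-Hochberg adjusted p under 0.05 and at least a 2-fold difference, and the genes that define the groups were not called. The members themselves span several clusters, so each comparison was repeated without the 199 members (14.9%) in clusters led by rod bipolar genes or genes of other classes.

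Against 1084 other ON cone bipolar barcodes, defined by Scgn and an ON gene but no Prkca, the members were higher in 95 of 8454 genes (1.12%) and lower in 173 (2.05%), together 3.17%. The count of 268 was 150 with DESeq2, 130 with every barcode thinned to 1000 UMIs and 7 with a mitochondrial limit of 20%. Among the named genes, Meis2, Hpca and Basp1 were higher in the members, and Vsx1, Irx6 and Cabp2 were lower. The homeobox gene Meis2 stood at 291, 286, 278 and 265 CPM in members and 161, 94.5, 78.8 and 112 CPM in the other ON barcodes, a log2 fold change of 1.28 (SE 0.12, adjusted p = 1.9e-06). Hpca stood at 328, 337, 357 and 318 CPM against 177, 107, 151 and 176 (1.11, SE 0.11, adjusted p = 4.2e-06). Named genes had been picked for the same direction in all 4 libraries, so that direction is no added support for either gene.

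Basp1, which encodes a membrane protein of growing nerve endings, stood at 129, 154, 176 and 170.1 CPM against 47.1, 39.4, 48.6 and 52.3 (log2 fold change 1.70, SE 0.11, adjusted p = 2.3e-08). The transcription factor genes Nfia (1.23) and Lmo4 (1.15), the nuclear receptor gene Esrrg (1.10), the cell cycle inhibitor gene Cdkn2c (1.42) and Fndc5 (1.14) were higher as well. All of these were also higher, and called, without the 199 members and in the 848 members of clusters 1 and 11 alone. At a mitochondrial limit of 20% none of them but Basp1 was called: Meis2 differed by 0.37 (adjusted p = 0.97), Hpca by 0.22, Nfia by 0.27, Esrrg by 0.21, Lmo4 by 0.45, Fndc5 by 0.53 and Cdkn2c by 0.71 on the log2 scale. Of the 1084 ON barcodes 311 lay inside the 4 Htr3a clusters. Against those outside, Meis2 differed by 4.67 and Hpca by 3.80 on the log2 scale. Meis2, Hpca, Nfia, Fndc5, Cdkn2c and Esrrg are among the leading genes of cluster 11. Basp1 is among those of cluster 17 and Lmo4 among those of cluster 10. Since the same cells gave the clusters, these cluster settings are no independent support for any of the genes named here.

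A second set of higher genes was not higher without those 199 members, apart from Amigo2. Ccdc136 differed by 2.67 on the log2 scale (SE 0.12, adjusted p = 7.5e-10), Car8, which encodes a carbonic anhydrase relative known from Purkinje cells, by 2.00, Amigo2 by 1.88, Ccng1 by 1.75 and Pcp4 by 1.18. Without the 199 members the values were -0.19, -2.32, 0.77, -0.19 and -0.04. The ON comparison barcodes had been required to lack Prkca, while the members had not. Col11a1 differed by 1.21 and was at -2.94 in clusters 1 and 11; 476 of its member UMIs lay in cluster 19, 128 and 116 in clusters 3 and 5, and 50 in cluster 10.

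The 15 named genes that were lower in the members stayed lower and called in each of these cluster settings, which rest on the same cells. The visual homeobox gene Vsx1 stood at 2.42, 15.9, 0 and 10.3 CPM in members and 208, 363, 436 and 212 CPM in the other ON barcodes (log2 fold change -5.10, SE 0.24, adjusted p = 1.0e-09). The homeobox gene Irx6 stood at 6.45, 6.35, 2.39 and 6.70 CPM against 107, 131, 107 and 108 (-4.29, SE 0.18, adjusted p = 5.3e-10). Both were near 0 in members of every library.

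The calcium-binding protein gene Cabp2 was at 20.9, 39.4, 16.7 and 53.6 CPM in members against 263, 344, 366 and 314 (log2 fold change -3.21, SE 0.16, adjusted p = 2.2e-09). Kcnma1, which encodes the BK potassium channel, was at 46.7, 54.0, 52.5 and 74.8 CPM against 263, 342, 320.3 and 294 (-2.42, SE 0.10, adjusted p = 6.1e-10). Reln, the gene of the matrix protein reelin, differed by -3.47 and the secretogranin gene Scg2 by -1.52. At a mitochondrial limit of 20% Kcnma1 (-1.14) and Scg2 (-0.47) were not called. The histocompatibility gene B2m differed by -1.59; summed microglia markers stood at 29.0, 52.7, 33.4 and 38.7 CPM in members and 31.4, 102, 10.1 and 204 CPM in the other ON barcodes, and their part in that result was not tested.

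By gene list, the 11 tested genes of the ON cascade gave 0 calls in edgeR's test and in DESeq2's, with a median log2 difference of 0.01 beside 0.00 over all genes; 6 of the 11 had an unadjusted p under 0.05. The 39 respiratory chain genes and the 21 glycolysis genes also gave 0 calls with either tool (medians -0.04 and -0.11), with 8 of each list at an unadjusted p under 0.05. List counts in this comparison are read beside the 1.12% higher and 2.05% lower over all tested genes. Of 26 transcription factor genes, 6 were higher, among them Irx3 (2.63) and Sox6 (1.15), and 7 were lower, among them Irx5 (-2.30) and Ebf1 (-3.71). Of 37 adhesion genes, 4 were higher, including Lrrtm4 (2.76), and 6 were lower, including Cdh8 (-1.57) and Ntng1 (-1.60). Lrrtm4 is also among the leading genes of cluster 5, a rod bipolar cluster (137 CPM, against 17.9 in the other gated bipolar barcodes). Against rod bipolar barcodes it differed by -2.71, and by -5.22 without members in clusters led by rod bipolar genes or genes of other classes. The part of those members in its higher value here was not tested. Of 12 GABA and glycine receptor genes none was higher and 2 were lower, among them Gabrr3 (-1.07).

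**Figure D4:**
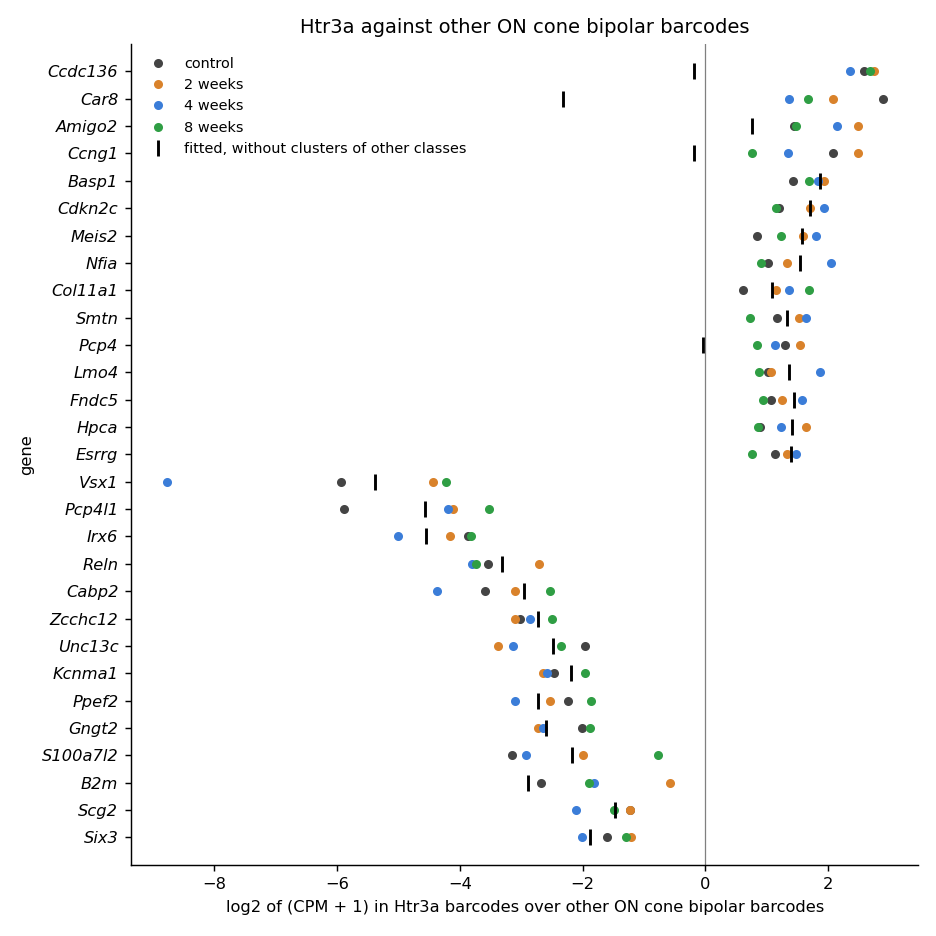
Log2 ratio of CPM + 1, members over other ON cone bipolar barcodes (horizontal axis), for 29 named genes (vertical axis), 1 point per library; ticks mark the fitted value without members in clusters of other classes. Meis2, Hpca and Basp1 keep their side, and the ticks of Ccdc136, Car8, Ccng1 and Pcp4 lie at or below 0.

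Against 597 rod bipolar barcodes, defined by Prkca without Scgn, more genes differed: 550 of 8554 were higher in the members (6.43%) and 534 lower (6.24%), together 12.7%; with thinned barcodes 523 were called in all. Phlda1 stood at 621, 610.0, 641 and 576 CPM in members and 20.1, 10.2, 4.09 and 16.9 CPM in rod bipolar barcodes (log2 fold change 5.44, SE 0.20, adjusted p = 1.1e-14). Sparcl1 differed by 4.77 and Cdh9, which encodes a cadherin of the type 5 family in mouse, by 4.66. Pcp2 stood at 1403, 3452, 1544 and 1740.0 CPM against 9612, 10960, 11320 and 8438 (-2.35, SE 0.16, adjusted p = 1.0e-10). Every library had more Pcp2 in the rod bipolar barcodes, and without the 199 members the difference was -4.49.

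Gene lists in that comparison are read beside the 6.43% higher and 6.24% lower over all genes. Of 13 calcium and HCN channel genes 6 were higher and none lower, with a median of 0.45 beside -0.03 over all genes. The pacemaker channel gene Hcn4 was at a mean of 82.0 CPM against 4.54 (3.99), and the T-type calcium channel genes Cacna1g and Cacna1h differed by 1.77 and 2.68. Of 38 adhesion genes 18 were higher and 6 lower, and of 15 potassium channel genes 6 were higher and 5 lower. In the ON cascade 1 of 11 genes was higher, Nyx (1.68), and 3 were lower, including Gpr179 (-1.02) and Lrit3 (-1.42), with a median of -0.73. Rod marker genes were lower in the members for 10 of 12, and their part in the other differences was not tested.

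The 296 OFF cone bipolar barcodes had no UMI of Grm6, Trpm1, Isl1 or Prkca and at most 1 amacrine UMI. They held at least 2 UMIs in Grik1, Vsx1 and Scgn summed, and the bipolar threshold was not applied to them. Against these barcodes 179 of 6804 genes were higher in the members (2.63%) and 234 lower (3.44%), together 6.07%. With thinned barcodes 189 were called in all, and at a mitochondrial limit of 20% 91. Several genes of the ON pathway that defined neither group were higher. ON genes were part of the rule for members, and the OFF barcodes were chosen to lack such genes. Higher values of other ON genes are therefore description and no independent support. Gnb3 stood at 1083, 1313, 1309 and 1003 CPM in members and 69.5, 250.1, 241 and 103 CPM in OFF barcodes (log2 fold change 2.95, SE 0.17, adjusted p = 1.0e-09). Of 9 tested ON cascade genes 5 were higher and none lower (median 1.54 beside -0.01 over all genes), among them Nyx (2.28), Gpr179 (1.66) and Gnao1 (1.54). Without members in clusters of other classes 4 were higher. Of 10 OFF marker genes 6 were lower, including Neto1, which encodes a kainate receptor auxiliary protein (-4.06) and Tacr3 (-2.45), and 1 was higher, Fstl4 (2.35).

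Receptor genes separated the members from OFF cells too. Gabrr2, a subunit gene of the GABA-C receptor, averaged 409 CPM against 157 (log2 fold change 1.45). All 5 calls among 10 glutamate receptor and transporter genes were lower in the members, Grm7 and Grin2b among them. Over all tested genes 2.63% were higher and 3.44% lower. The members in cluster 19, which carry Tacr3, Neto1 and Col11a1 themselves, are included in these values.

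Between times, 2726 genes had at least 50 CPM on average and 30 UMIs in the pair of libraries at 2 and 4 weeks, and 2728 at 8 weeks. At 2 weeks 73 genes stood at least 2-fold above control (2.68%) and 23 below (0.844%), together 3.52%. At 4 weeks the counts were 12 (0.440%) and 27 (0.990%), together 1.43%, and at 8 weeks 15 (0.550%) and 2 (0.0733%), together 0.623%. The median log2 difference of all genes was 0.16, 0.03 and 0.03, and TMM scaling, which brings the 2-week median to 0.03, gave 50 and 31 at 2 weeks and 13 and 7 at 8 weeks. At a mitochondrial limit of 20% the totals past 2-fold were 179, 125 and 190 in place of 96, 39 and 17. These counts describe 4 libraries and carry no test. One gene (0.0367%) was past 2-fold at all 3 times, Lgals1; it was not with TMM scaling, with totals without mitochondrial genes, with Scrublet calls removed, with thinned barcodes or with 0 amacrine UMIs.

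Several genes stood below the control at each time. Drd4, which encodes a dopamine receptor, was at 182, 60.9, 92.0 and 93.3 CPM in the members, with log2 ratios of -1.57 (-1.94 to -1.23), -0.98 (-1.38 to -0.61) and -0.96 (-1.25 to -0.68). Over cluster 1 the ratios were -1.09, -0.92 and -1.03. In the other ON barcodes they were -0.98, -0.58 and -0.98, and in rod bipolar barcodes -1.2, 0.05 and 0.48. Rod barcodes had 291, 222, 238 and 245 CPM of Drd4, more than the members in every library. The part of rod RNA in the member values was not tested. Ptprn, which encodes a protein of dense-core vesicles, was at 211, 112, 121 and 120.1 CPM (-0.92, -0.80 and -0.81, and over cluster 1 -1.64, -1.07 and -1.24). Its ratios were -1.02, -0.56 and -0.70 in the other ON barcodes and 1.93, 1.85 and 0.30 in rods.

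Tfrc, the transferrin receptor gene, was at 115, 45.7, 51.4 and 66.5 CPM, with log2 ratios of -1.33, -1.15 and -0.79, and -1.19, -1.11 and -0.92 over cluster 1. Tfrc was lower in other classes too. The ratios were -1.47, -1.05 and -0.79 in the other ON barcodes, -0.93, -1.34 and -0.87 in rod bipolar barcodes and -0.73, -0.80 and -0.35 in rods. Pld3, Nop53, Tmem229b and Tceal9 were lower at each time by smaller ratios, -0.44 to -0.84, and by -0.38 to -0.79 over cluster 1. They were also lower at each time in the other ON barcodes. In all of these the control was the highest of the 4 libraries, for the members and for cluster 1.

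Sparcl1 and Scg2 followed another course. Sparcl1, which ranks first among the leading genes of cluster 11 and is also one of those of cluster 1, stood at 1025, 898, 344 and 261 CPM, a log2 ratio of -0.19 (-0.30 to -0.08), -1.57 (-1.76 to -1.39) and -1.97 (-2.12 to -1.82). Cluster 1 alone had 1470.0, 1823, 555 and 452 CPM (0.31, -1.40 and -1.70). The 4- and 8-week libraries were both far below the others. Classes with little Sparcl1 were also below control at those times. Rod bipolar barcodes stood at 44.8, 43.4, 0 and 4.73 CPM. OFF barcodes stood at 32.7, 5.10, 0 and 15.6 CPM and were low at 2 weeks already. Whether the course is particular to the members was not tested.

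Scg2, which encodes a granin of dense-core vesicles, stood at 907, 786, 376 and 546 CPM (-0.21, -1.27 and -0.73), and its cluster 1 ratios were -0.35, -1.59 and -0.69. The lowest library was the 4-week one. In cluster 19 alone, with 13 barcodes at 4 weeks, the log2 ratio of Scg2 at that time was 0.35, and Sparcl1 had no UMI there in either library.

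Higher at each time was Lgals1, which encodes galectin-1, at 26.6, 54.0, 62.1 and 66.0 CPM, with log2 ratios of 1.01 (0.43 to 1.65), 1.22 (0.57 to 1.90) and 1.29 (0.75 to 1.91). Over cluster 1 they were 1.56, 1.27 and 1.09. Rod barcodes had 10.3, 56.5, 8.56 and 9.46 CPM of Lgals1, highest at 2 weeks.

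Msrb2, which encodes a methionine sulfoxide reductase, was at 37.9, 62.8, 82.4 and 66.5 CPM (0.72, 1.12 and 0.80), and its cluster 1 ratios were 1.18, 0.79 and 1.00. Zfhx4 (1.17, 0.87 and 1.07) and Rgs7, the regulator that speeds shut-off of the mGluR6 cascade (1.01, 1.07 and 0.81), were also higher at each time. In cluster 1 Zfhx4 was at 1.38, 1.24 and 0.43 and Rgs7 at 0.26, 0.71 and 0.40, and the intervals of Zfhx4 at 8 weeks and of Rgs7 at 2 and 8 weeks reached 0.

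**Figure D5:**
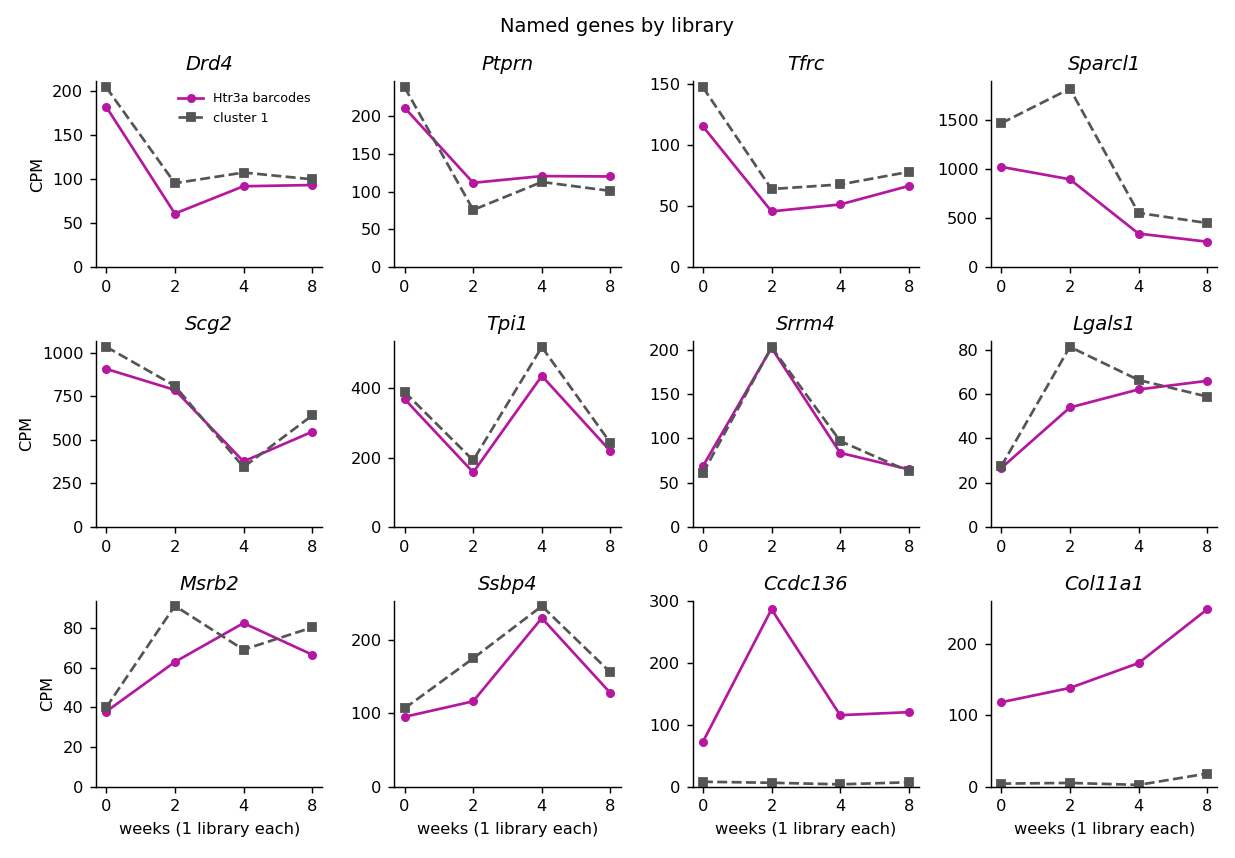
CPM (vertical axes) by week (horizontal axes) for 12 named genes, over the members (solid lines) and over all barcodes of cluster 1 (dashed lines), 1 library per point. Drd4, Ptprn and Tfrc are highest in the control, Sparcl1 is lower at 4 and 8 weeks in both lines, and Ccdc136 peaks at 2 weeks over the members but not in cluster 1.

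Some of the 2-week values were not seen in cluster 1. Ccdc136 stood at 72.5, 287, 116 and 121 CPM in the members (1.98 at 2 weeks) and differed by -0.27 (-2.04 to 1.24) in cluster 1. Gem (1.47) and Tmem196 (1.46) were at -0.70 and -0.19 there. Others were. Srrm4, which encodes a neuronal splicing factor, was at 68.5, 202, 83.6 and 65.0 CPM (1.55, and 1.74 in cluster 1), and in rods it was at 23.4 CPM in the control and 65.1 CPM at 2 weeks.

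Tpi1, the glycolytic triose phosphate isomerase gene, was at 368, 157, 435 and 218 CPM, lower at 2 weeks (-1.23, cluster 1 -1.01) and 8 weeks (-0.76, cluster 1 -0.68) and not at 4 weeks (0.24). Gsg1 was at 1787, 912, 1437 and 1260.0 CPM (-0.97 at 2 weeks, cluster 1 -0.55).

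At 4 weeks Ssbp4 (95.1, 116, 229 and 127 CPM) and Pabpn1, which encodes a nuclear poly(A) binding protein (292, 506, 585 and 326 CPM), had log2 ratios of 1.27 and 1.00, and 1.20 and 1.04 in cluster 1.

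At 8 weeks the largest ratios came from few barcodes. All 422 Sncg UMIs of the 8-week members, and 99.1% of those of Calb2, lay in 1 barcode. Summed ganglion cell markers were 9.67, 4.44, 7.17 and 314 CPM in the members. Col11a1 was at 118, 138, 173 and 248 CPM (1.07 at 8 weeks); over cluster 1 it was at 4.44 CPM in the control and 18.5 CPM at 8 weeks (1.97). The clusters whose members carry most of it are 19, which held 5.15%, 5.01%, 5.19% and 8.35% of the members, 3 and 5, given above, and 10, which held 2.94%, 2.15%, 4.72% and 6.03%. Speg was at 89.4, 93.3, 70.5 and 47.4 CPM (-0.91 at 8 weeks, cluster 1 -1.19), and the clock gene Cry2 at 129, 129, 112 and 72.2 CPM (-0.84, cluster 1 -0.51). Nts had 166, 41, 0 and 172 UMIs in 5, 4, 0 and 11 members, so a handful of barcodes carried its level.

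Counts in the gene lists are read beside the 3.52%, 1.43% and 0.623% of all genes that were past 2-fold at 2, 4 and 8 weeks. None of 37 respiratory chain genes was past 2-fold at any time, a share near that background, with medians of 0.17, -0.08 and -0.01 beside 0.16, 0.03 and 0.03 over all genes. Of 15 glycolysis genes, 1 was lower at 2 weeks (Tpi1), 1 lower at 4 weeks (Pfkp, -1.20, cluster 1 -1.37) and none at 8 weeks. Of 8 ON cascade genes, 3 were past 2-fold above control at 2 weeks, Rgs7, Prkca and Pcp2, which includes the rod bipolar genes of clusters 3 and 5. Of 16 ribbon synapse genes, only the syntaxin gene Stx3 was past 2-fold, at 79.0, 82.5, 33.4 and 79.4 CPM (-1.22 at 4 weeks, cluster 1 -1.01).

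Of 7 immediate early genes, which neurons switch on within minutes of stimulation, 1 was past 2-fold at 2 weeks, 2 at 4 weeks and none at 8 weeks, all above control, beside the same 3.52%, 1.43% and 0.623% of all genes. Fos was at 142, 148, 373 and 182 CPM (0.07, 1.39 and 0.36; cluster 1 -0.25, 1.01 and 0.14). Egr1 was at 33.0, 108, 96.7 and 54.1 CPM (1.70, 1.54 and 0.70; cluster 1 0.39, 1.42 and 0.61). The 4-week library was the highest for Fos in both sets.

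Gadd45g, a stress-inducible gene of the p53 list, was at 399.6, 895, 740.4 and 502 CPM (1.16, 0.89 and 0.33; cluster 1 1.14, 0.77 and 0.36). Atf4, which encodes the factor of the integrated stress response, was at 399, 666, 529 and 442 CPM (0.74, 0.41 and 0.15; cluster 1 1.02, 0.52 and -0.03). Both were highest at 2 weeks and nearest to control at 8 weeks. Of 8 circadian genes none was past 2-fold; Per3 was at 284, 336, 402 and 434 CPM (0.25, 0.50 and 0.61; cluster 1 0.44, 0.52 and 0.64). The hour at which the retinas were taken is not given in the sources used here.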

How the data were processed

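Counts are UMIs per gene and barcode as deposited by the authors, made with Cell Ranger 3.0.1 on Rnor_6.0 per the submitters' processing notes; no other step is given in the sources used here. The members and gene lists were chosen with earlier results of these data known. Barcodes were filtered and gated as stated, counts were summed per library, and CPM is relative to all UMIs of the summed barcodes. Ratios between times add 0.5 counts and carry exact conditional binomial 95% intervals, and share ratios normal-approximation intervals on the log scale; both cover counting error only. Type comparisons used edgeR 4.0.16 (R 4.3.3; DESeq2 1.42.0 as an alternative) with library as a block, because both classes come from the same 4 libraries; p-values measure the spread between these libraries. Each SE is the absolute log2 fold change divided by the square root of the F statistic of edgeR's test. The procedure was tested on simulated data. Clusters came from scanpy 1.11.5 (leidenalg 0.10.2), centred by library, without the 8 rule genes. Which clusters belong to other classes was judged from their leading genes.

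Named genes were the 15 higher and 15 lower calls with the largest fold (10 and 10 for rod bipolar and OFF), in the same direction in all 4 libraries and with at least 100 CPM in the higher class. For times they were the 10 higher and 10 lower at all 3 times and 6 of each per time, by ratio and interval. List members with a call or at least 100 CPM, and serotonin genes, could be named too; Nts and the genes that lead clusters were chosen after their values were seen. Genes that share reads with near-identical copies may be miscounted. Sequences are not shown, and 3 genes are not reported here.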

Additional observations from a re-analysis of the deposited data

How the results depend on the processing

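Calls against other ON cone bipolar barcodes (268) moved to 7 with a 20% mitochondrial limit, 130 with barcodes thinned to 1000 UMIs, 150 with DESeq2, 130 with no replicate block, and, chosen after seeing the data, 427 without members in clusters of other classes, 536 in the 2 largest clusters and 508 with comparison barcodes outside the Htr3a clusters. Against rod bipolar (1084) thinning gave 523, and against OFF (413) it gave 189 and the 20% limit 91. Without the replicate block these counts were 862 and 280. Leaving out each library gave 207 to 261, 823 to 1227 and 304 to 375. No paired analysis was possible between times because each time has 1 library.

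The log2 share ratio of -0.30 at 2 weeks became 0.39 at the 20% limit, -0.51 with at least 2 Htr3a UMIs, -1.08 for the cluster with most members (1) and 0.22 for that with the highest Htr3a (19). At 4 weeks these 2 clusters gave -0.43 and 0.17, and at 8 weeks cluster 19 gave 1.16.

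Genes past 2-fold between times (96, 39 and 17) numbered 404, 273 and 114 at 1.5-fold and 24, 9 and 3 at 3-fold. They were 169, 107 and 31 with at least 2 Htr3a UMIs, 179, 125 and 190 at the 20% limit, 25, 8 and 2 with at least 200 CPM, and 188, 95 and 59 thinned. Totals without mitochondrial genes gave 62 at 4 weeks, and cluster 19 gave 80 at 8 weeks. At all 3 times (1) the counts were 26 at 1.5-fold, 15 at the 20% limit, 8 with at least 2 Htr3a UMIs, 4 thinned and in cluster 19, 3 in the 2 largest clusters, 2 in cluster 1 or with at least 4 gate UMIs (1 higher and 1 lower each), 2 with Scrublet calls removed (both lower), 1 with TMM (lower, in place of 1 higher), and 0 at 3-fold, with 0 amacrine UMIs, with at least 200 CPM and without mitochondrial totals.

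Against ON barcodes the sign turned in the 2 largest clusters for Amigo2 (-1.59), Car8 (-3.20), Ccdc136 (-2.02), Ccng1 (-0.72), Col11a1 (-2.94) and Pcp4 (-0.16), without members of other-class clusters for Car8 (-2.32), Ccdc136 (-0.19), Ccng1 (-0.19) and Pcp4 (-0.039), and at the 20% limit for S100a7l2 (0.012). Between times, in the order cluster 1, cluster 19, the 2 largest clusters and members outside other-class clusters, with values given only where the sign turned, Sncg at 8 weeks was at -1.98, -1.40, -0.40 and -0.56, and -0.59 with at least 2 Htr3a UMIs. In cluster 1 the sign turned for Ccdc136 (-0.27), Gem (-0.70), Tmem196 (-0.19) and Nts (0.55) at 2 weeks and for Nts at 4 weeks (0.84). Nts in clusters 1 and 11, Sncg in every setting given but cluster 1 (1 UMI in the control), and Pfkp and Sparcl1 in cluster 19 at 4 weeks have no UMI in either library, so those values come from the added counts and show no difference. In the 2 largest clusters it turned for Gem (-0.32), Tmem196 (-1.15) and Nts (0.068) at 2 weeks and Nts at 4 weeks (0.54). Without other-class clusters it turned for Tmem196 (-0.11) at 2 weeks and Calb2 (-0.27) at 8 weeks, and at the 20% limit for Gem (-0.046). In cluster 19 it turned for Ccdc136 (-1.23) and Stim2 (-1.72) at 2 weeks, for Pfkp (0.32), Rgs7 (-0.043), Scg2 (0.35), Sparcl1 (0.32) and Tfrc (0.61) at 4 weeks, and for Grifin (-0.76) and Sparcl1 (1.41) at 8 weeks. The cause was not tested beyond these settings. Low Htr3a counts limit the gate, and single libraries limit every comparison between times.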
